A study of Sus scrofa with 8 samples.

Results

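The 6 genes that mark the endothelial cells of vessels (EGFL7, ENG, PECAM1, VWF, CDH5 and KDR) and VEGFA, the growth factor that acts on those cells, were followed in the back muscle of 2 pig breeds. The genes were chosen by symbol: a probe set of the array belonged to them where the platform annotation gave exactly 1 gene symbol and that symbol was one of the 7. All 7 genes were found, with 15 probe sets, among 6765 genes that have such a probe set. Total RNA of the longissimus dorsi, taken between the seventh and ninth ribs, was hybridised to 8 Affymetrix arrays. Korean native pigs aged 7 months gave 4 arrays and Yorkshire pigs aged 6 months gave 4, labelled as biological replicates 1 to 4 of each breed, so a breed difference cannot be told apart from one of age. Both breeds were kept under the same conditions per the labels, and neither received a treatment. The study set out to compare muscle gene expression of the breeds. The questions followed here are whether the vessel genes differ between the breeds and whether they move together from animal to animal.

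Skeletal muscle is threaded with capillaries, and every capillary is a tube of endothelial cells. VEGFA is secreted by muscle fibres and other cells when oxygen is short or work is high, and it binds receptors on endothelial cells, of which KDR carries most of the growth signal. Genes that only endothelial cells express are often read as a measure of how much vessel a tissue piece holds. In a piece of whole muscle, fewer endothelial cells and less RNA per endothelial cell cannot be told apart.

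Signals of 8 of the 15 probe sets lay above the negative controls on all 8 arrays. The limit used for this was a signal of 91.5, the 95th percentile of 23 negative control probe sets over all arrays. A probe set was tested for a breed difference if it was not among the dimmest 40% of the array, a limit near a signal of 98.6, and 11 of the 15 passed it. These 11 covered EGFL7, ENG, PECAM1, VWF, CDH5 and VEGFA. Both probe sets of KDR fell below the limit, as did 1 of 3 for VWF and 1 of 4 for VEGFA. Where a gene had several probe sets, the one of highest mean signal stands for it and the others are given beside it. The level of a probe set depends on its probes, so levels are compared between arrays and never between genes.

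**Figure D1:**
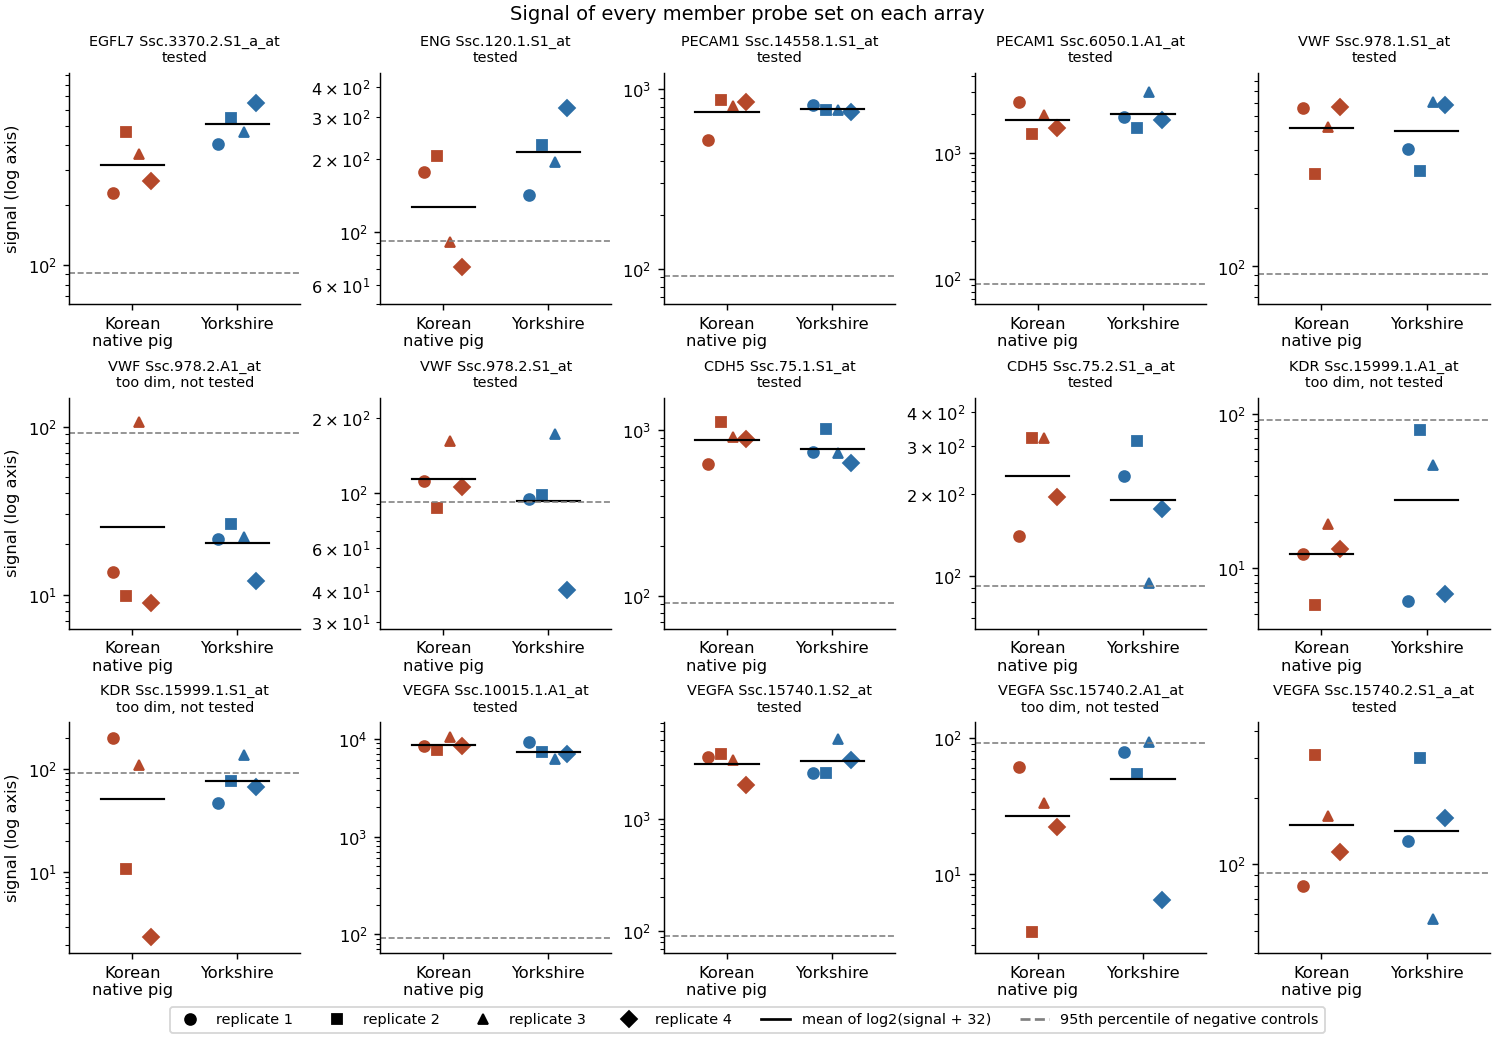
Signal of each of the 15 probe sets (vertical log axis) on the 4 Korean native pig arrays (red) and the 4 Yorkshire arrays (blue), with a marker shape per replicate number, the mean of log2(signal + 32) as a black line and the 95th percentile of the negative controls, 91.5, as a dashed line. The breeds overlap in every panel, and the 2 KDR panels lie mostly under the dashed line.

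The labelled tissue showed its markers: TNNC2, a troponin of fast muscle fibres, had signals of 49503 to 80608 in Korean native pigs and 64978 to 127816 in Yorkshire pigs. Arrays differed in measures that do not belong to the breeds. For housekeeping controls the log2 signal at the 3' end minus that at the 5' end was 3.33 for Korean native pig 1 and 3.03 for Yorkshire 3, while the remaining 6 arrays had 0.87 to 1.73. Those 2 are called the high-ratio arrays. Replicates 1 and 3 of each breed had bright hybridisation controls (log2 signal 13.57 to 13.93), and replicates 2 and 4 had dim ones (12.66 to 13.04). Changes within the bright and within the dim arrays, 2 per breed in each, are given beside the pooled ones.

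EGFL7, which encodes a protein that endothelial cells secrete while they form tubes, was lower in 3 of the 4 Korean native pigs than in any Yorkshire pig. Its signals were 231, 462, 362 and 264 in Korean native pigs 1 to 4, against 404, 544, 462 and 652 in Yorkshire pigs 1 to 4. Korean native pig 2 was the exception and lay among the Yorkshire values. Korean native pigs had a mean signal of 330 ± 104, against 516 ± 107 for the Yorkshire pigs (SD, n = 4 each). On the log2(signal + 32) scale the change was -0.62 (SE 0.25, 95% interval -1.18 to -0.07). It did not pass after adjustment over all probe sets (limma adjusted p = 0.999, unadjusted p = 0.0312). The bright arrays alone gave -0.53 and the dim arrays -0.71.

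ENG encodes endoglin, a co-receptor on endothelial cells for ligands of the transforming growth factor family. Its signals were 177, 206, 90.6 and 71.3 in Korean native pigs 1 to 4, against 142, 229, 195 and 327 in Yorkshire pigs 1 to 4. Korean native pigs 3 and 4 lay below every Yorkshire value, while Korean native pigs 1 and 2 lay among them. Those 2 low signals were under the 91.5 of all negative controls, but each exceeded the 95th percentile of the negative controls of its own array, 85.2 and 47.7. The log2 change was -0.64 (SE 0.35, 95% interval -1.41 to 0.13, limma adjusted p = 0.999). The bright arrays alone gave -0.31 and the dim arrays -0.97. Changes of dim probe sets are understated on this scale.

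PECAM1, an adhesion protein at the contacts between endothelial cells that platelets and leukocytes also carry, showed no difference beyond the spread between animals. Its brighter probe set had 2481, 1389, 1971 and 1564 in Korean native pigs 1 to 4, against 1921, 1558, 3011 and 1795 in Yorkshire pigs 1 to 4. The highest values of the breeds, 2481 and 3011, were those of Korean native pig 1 and Yorkshire 3, the high-ratio arrays. The log2 change was -0.15 (SE 0.25, 95% interval -0.69 to 0.39, limma adjusted p = 0.999), and it was 0.044 without Yorkshire 3. Its second probe set had 521, 878, 805 and 848 in Korean native pigs 1 to 4, against 814, 772, 765 and 750.1 in Yorkshire pigs 1 to 4. Here Korean native pig 1 was the lowest of all 8 arrays and the other 7 lay within a narrow band. Its change was -0.05 (SE 0.21, limma adjusted p = 0.999), or 0.12 without Korean native pig 1.

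CDH5 encodes the cadherin that joins endothelial cells to each other. Its brighter probe set had 628, 1114, 908 and 887 in Korean native pigs 1 to 4, against 735, 1017, 728 and 636 in Yorkshire pigs 1 to 4. The lowest value, 628, and the highest, 1114, were both from Korean native pigs. The log2 change was 0.17 (SE 0.23, 95% interval -0.32 to 0.66, limma adjusted p = 0.999). A second probe set had 140.2, 323, 322 and 195 in Korean native pigs 1 to 4, against 234, 315, 94.2 and 176 in Yorkshire pigs 1 to 4. Its r with the first over the arrays was 0.75, which did not pass (exact permutation adjusted p = 0.390). The second probe set changed by 0.26 (SE 0.36, limma adjusted p = 0.999), or -0.016 without Yorkshire 3.

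VWF encodes the clotting protein that endothelial cells store and release and that platelets also hold. Its signals were 657, 302, 527 and 667 in Korean native pigs 1 to 4, against 403, 309, 709 and 681 in Yorkshire pigs 1 to 4. Replicate 2 was the lowest of both breeds, and each breed spanned the same range. The log2 change was 0.05 (SE 0.32, 95% interval -0.64 to 0.74, limma adjusted p = 0.999). Its sign turned without Korean native pig 1 or 4 (-0.06 and -0.07) and without Yorkshire 1 or 2 (-0.05 and -0.16). A second tested probe set had 86.4 to 162 in Korean native pigs and 40.5 to 172 in Yorkshire pigs, with a change of 0.22 (SE 0.38), or -0.038 without Yorkshire 4. The third was too dim to test, with signals of 8.97 to 106 in Korean native pigs and 12.0 to 26.4 in Yorkshire pigs.

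KDR, the receptor that carries most of the VEGFA signal into endothelial cells, could not be followed on these arrays. The brighter of its 2 probe sets had 199.7, 10.7, 108 and 2.37 in Korean native pigs 1 to 4, against 47.0, 75.5, 137 and 66.2 in Yorkshire pigs 1 to 4. Only Korean native pigs 1 and 3 and Yorkshire 3 exceeded 91.5, and all 3 are arrays of bright hybridisation controls. Yorkshire 2, an array of dim ones, exceeded only the 95th percentile of the negative controls of its own array, 56.4. The other probe set was below 91.5 on all 8 arrays, at 5.79 to 19.3 in Korean native pigs and 6.09 to 79.2 in Yorkshire pigs. With no filter on dim probe sets the changes were -0.39 (SE 0.57) and -0.43 (SE 0.37), and neither passed (limma adjusted p = 0.9998 for both).

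VEGFA, the ligand, was far above the negative controls in every animal by 2 of its 4 probe sets. The brightest had 8366, 7706, 10494 and 8460.2 in Korean native pigs 1 to 4, against 9255, 7373, 6142 and 6996 in Yorkshire pigs 1 to 4. All Korean native pigs lay above 3 of the 4 Yorkshire pigs, while Yorkshire 1 lay above 3 of the 4 Korean native pigs. Korean native pigs had a mean of 8757 ± 1206, against 7442 ± 1314 for the Yorkshire pigs (SD, n = 4 each). The log2 change was 0.24 (SE 0.18, 95% interval -0.16 to 0.64, limma adjusted p = 0.999).

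The second VEGFA probe set did not give the same order of animals. It had 3518, 3755, 3289.6 and 1985 in Korean native pigs 1 to 4, against 2547, 2539, 5077 and 3325 in Yorkshire pigs 1 to 4. Yorkshire 3 was its highest array, whereas it was the lowest by the brightest probe set. The change was -0.08 (SE 0.27, 95% interval -0.67 to 0.50, limma adjusted p = 0.999). Leaving out Korean native pig 4 made it 0.12, and leaving out Yorkshire 3 made it 0.13. The last tested probe set had 79.9 to 311 in Korean native pigs and 56.9 to 302 in Yorkshire pigs, with a change of 0.07 (SE 0.45). That became -0.24 when Korean native pig 2 was left out and -0.26 when Yorkshire 3 was. The mean of the 3 tested probe sets gave 0.07. The fourth, untested and below 91.5 on 7 of 8 arrays, had 3.72 to 61.4 in Korean native pigs and 6.40 to 93.3 in Yorkshire pigs.

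**Figure D2:**
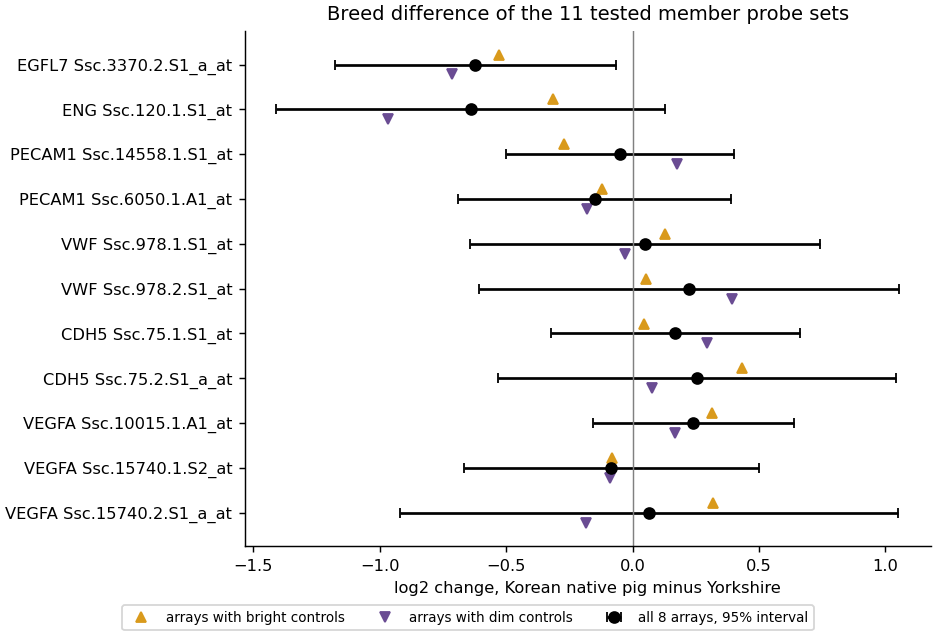
The log2 change, Korean native pig minus Yorkshire, of the 11 tested probe sets (horizontal axis, log2 units) with its 95% interval over all 8 arrays, and the change within the arrays of bright and of dim hybridisation controls (triangles). The interval of EGFL7, -1.18 to -0.07, is the only one that does not reach 0, before adjustment for the number of probe sets.

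Of the 11 probe sets 0 passed an adjusted p of 0.05 by limma, as 0% of all 14399 did. At an unadjusted p under 0.05 there was 1 of the 11, EGFL7, where the background was 3.96% of all probe sets. Its unadjusted p by limma was above 0.05 without Korean native pig 1 (0.0912) or 4 (0.0819), without Yorkshire 2 (0.0662) or 4 (0.0847), without both high-ratio arrays (0.0923), and with arrays centred on their median (0.0682). The breeds separated without overlap in 0 of the 11, against a background of 2.56%. Below 0 were 5 of the 11, where 49.3% of all probe sets lay. Taking 1 probe set per gene, the 5 tested vessel markers had a median change of -0.15, with 3 of 5 below 0. Over all 5331 genes tested the median was -0.0027, with 50.4% below 0. The marker median was that of the brighter PECAM1 probe set. Its change was 0.044 without Yorkshire 3 and -0.074 with arrays centred on their median. The half-width of the 95% interval had a median of 0.617 over all tested probe sets. For the brightest VEGFA probe set the interval was narrower, -0.16 to 0.64, but it held 0, so its change of 0.24 could not be told from none.

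No common movement of the vessel markers across the 8 animals was found. Among the 10 pairs of the 5 tested markers the median correlation of log2 signal was -0.19, with a range of -0.74 to 0.72, and 4 of the 10 were above 0. Over all 14207115 pairs of tested genes the median was 0.0086, with 50.7% above 0 and the middle 90% between -0.64 and 0.66. With VEGFA added there were 15 pairs, and 0 passed an adjusted p of 0.05 over the 15 (exact permutation test over all orders of the arrays, two-sided, smallest adjusted p = 0.230 for r and 0.173 for rho). Before adjustment 2 pairs had p under 0.05 for r and 3 for rho. Centred within breed, the median over the marker pairs was -0.12.

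**Figure D3:**
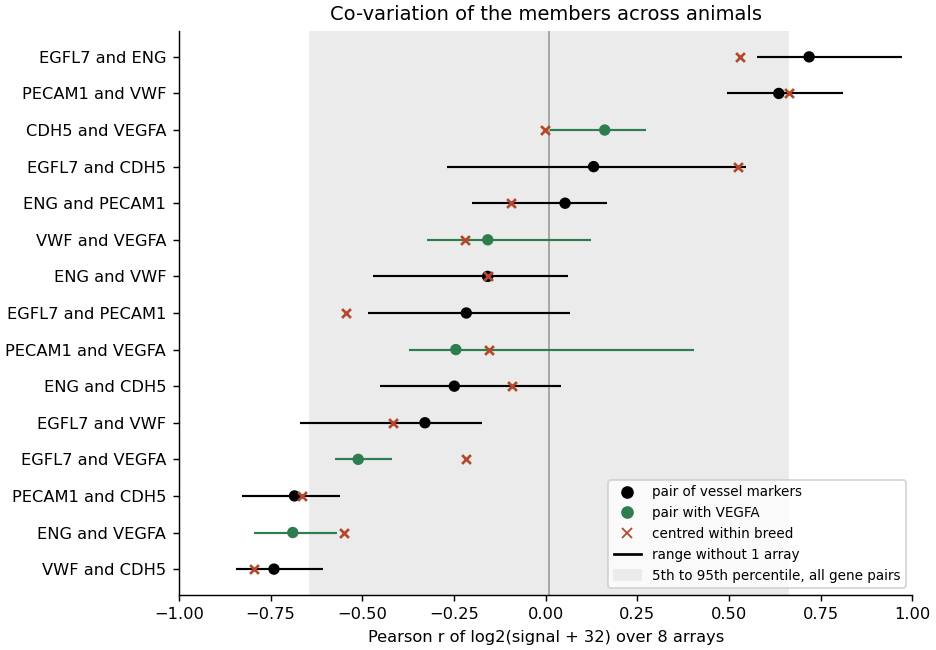
Pearson r over the 8 arrays for the 15 pairs of tested genes (points; black for pairs of vessel markers, green for pairs with VEGFA), the range of r when each array is left out (lines) and r after centring within breed (crosses). Grey marks the 5th to 95th percentile over all pairs of tested genes, -0.64 to 0.66. Only EGFL7 with ENG exceeds that band on the right, at 0.72, and PECAM1 with CDH5, ENG with VEGFA and VWF with CDH5 exceed it on the left.

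EGFL7 and ENG were the pair that moved together most. Their r was 0.72 (exact permutation p = 0.0434, adjusted p = 0.230) and their rho 0.83 (exact permutation p = 0.0154, adjusted p = 0.173). Korean native pig 1 stood off the line, with the lowest EGFL7 of all, 231, and a middling ENG of 177. With each array left out in turn r ran from 0.58 without Yorkshire 4 (exact permutation adjusted p = 0.404) to 0.97 without Korean native pig 1 (exact permutation adjusted p = 0.00595), and it passed over the 15 pairs only without Korean native pig 1. That animal is also left out with both high-ratio arrays (r of 0.97, exact permutation adjusted p = 0.0417) and with Korean native pigs 1 and 4, the arrays farthest from the EGFL7 median (0.97). Over all 8 arrays it was 0.53 after centring within breed and 0.69 after centring within the brightness of the hybridisation controls.

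VWF and CDH5 had the most negative r of the pairs, which did not pass. It was -0.74 (exact permutation p = 0.0491, adjusted p = 0.230) and their rho was -0.74 (exact permutation p = 0.0458, adjusted p = 0.173). Without both Yorkshire 2 and Korean native pig 2, where VWF was lowest and CDH5 highest, r was -0.24. With the second probe sets of VWF and CDH5 it was -0.15. With 1 array left out r ran from -0.84 to -0.61, and centred within breed it was -0.80. PECAM1 and CDH5 had an r of -0.68 (exact permutation p = 0.0612, adjusted p = 0.230) and a rho of -0.71 (exact permutation p = 0.0576, adjusted p = 0.173), and r was -0.68 without Korean native pig 1 and Yorkshire 3 but 0.49 with the second probe sets. PECAM1 and VWF had an r of 0.64 (exact permutation p = 0.0919, adjusted p = 0.276) and a rho of 0.64 (exact permutation p = 0.0962, adjusted p = 0.240), and r was 0.45 without the same arrays and -0.03 with the second probe sets. The 6 other marker pairs had r between -0.33 and 0.13.

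**Figure D4:**
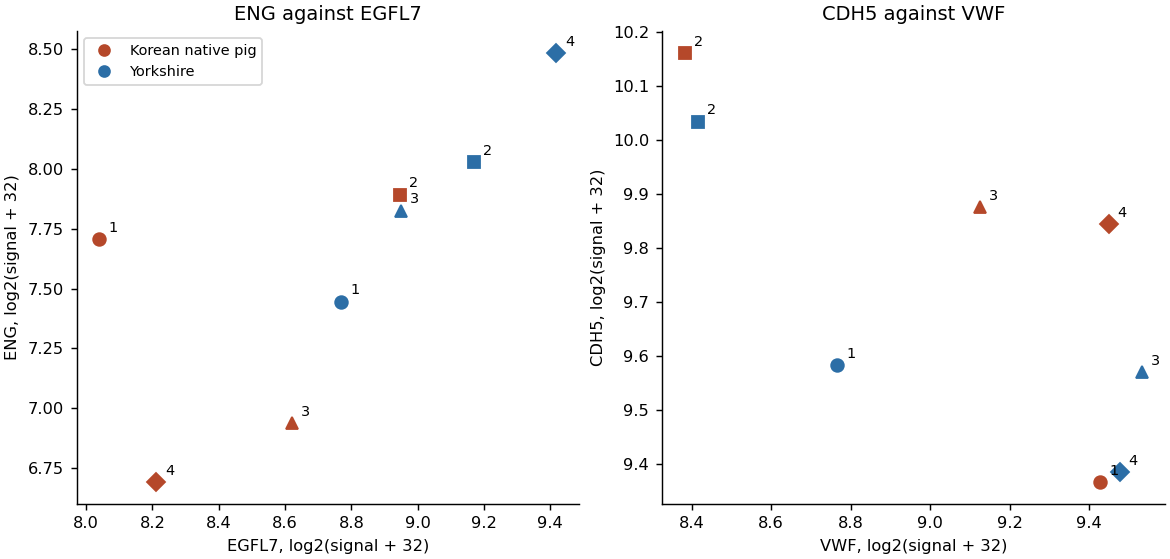
Each of the 8 arrays by replicate number, with log2(signal + 32) of EGFL7 (horizontal) against ENG (vertical) on the left and of VWF (horizontal) against CDH5 (vertical) on the right. On the left 7 arrays lie along a line and Korean native pig 1 lies off it; on the right Korean native pig 2 and Yorkshire 2 lie at the upper left, apart from the other 6.

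No vessel marker passed the test for moving with VEGFA. The 5 pairs of VEGFA had a median r of -0.24 and a range of -0.69 to 0.16, and 4 of the 5 were below 0. The most negative was with ENG, at -0.69 (exact permutation p = 0.0576, adjusted p = 0.230) with a rho of -0.79 (exact permutation p = 0.0279, adjusted p = 0.173). Without Korean native pigs 3 and 4 this r was -0.58, and centred within breed it was -0.55. These values hold for the brightest VEGFA probe set: with the second probe set of VEGFA, PECAM1, CDH5 and VWF the median r with VEGFA was 0.25, and ENG with VEGFA was 0.47. Without Yorkshire 3 alone the median was 0.032.

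Probe sets of a single gene did not always follow each other. The tested pair of CDH5 had an r of 0.75 (exact permutation p = 0.0325, adjusted p = 0.390 over the 12 pairs of probe sets of a gene) and a rho of 0.88 (exact permutation p = 0.00724, adjusted p = 0.0869). The PECAM1 pair had an r of -0.56 (exact permutation p = 0.152, adjusted p = 0.524) and a rho of -0.62 (exact permutation p = 0.115, adjusted p = 0.460). The 2 brightest VEGFA probe sets had an r of -0.48 (exact permutation p = 0.218, adjusted p = 0.524) and a rho of -0.50 (exact permutation p = 0.216, adjusted p = 0.486). Leaving out the 2 arrays farthest from the median gave 0.65, -0.36 and -0.39.

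The 3' to 5' ratio of the housekeeping controls, a measure of RNA and labelling quality, moved with part of these probe sets. The brighter PECAM1 probe set rose with the ratio, with an r of 0.92 (exact permutation p = 0.00280, adjusted p = 0.0308 over the 11 tested probe sets) and a rho of 0.93 (exact permutation p = 0.00223, adjusted p = 0.0246). Among the 6 other arrays r was 0.81 (exact permutation p = 0.0444, adjusted p = 0.372). With 7 arrays r stayed between 0.89 and 0.96, but the adjusted p was over 0.05 without Korean native pig 2 (0.0600), Korean native pig 3 (0.0720), Yorkshire 1 (0.0851) or Yorkshire 2 (0.0535). The other PECAM1 probe set had an r of -0.74 with the ratio (exact permutation adjusted p = 0.0771) and a rho of -0.52 (exact permutation adjusted p = 0.270), and r was -0.058 among the 6 arrays. The dimmest tested VEGFA probe set had an r of -0.84 (exact permutation adjusted p = 0.0597) and a rho of -0.86 (exact permutation adjusted p = 0.0589), or -0.74 among the 6. The 8 other probe sets had r from -0.79, for the second of CDH5, to 0.56, for VWF, and none of them passed (exact permutation, smallest adjusted p = 0.0597 for r and 0.168 for rho). That of CDH5 was -0.23 among the 6. The part of RNA quality in the correlations between markers was not tested.

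**Figure D5:**
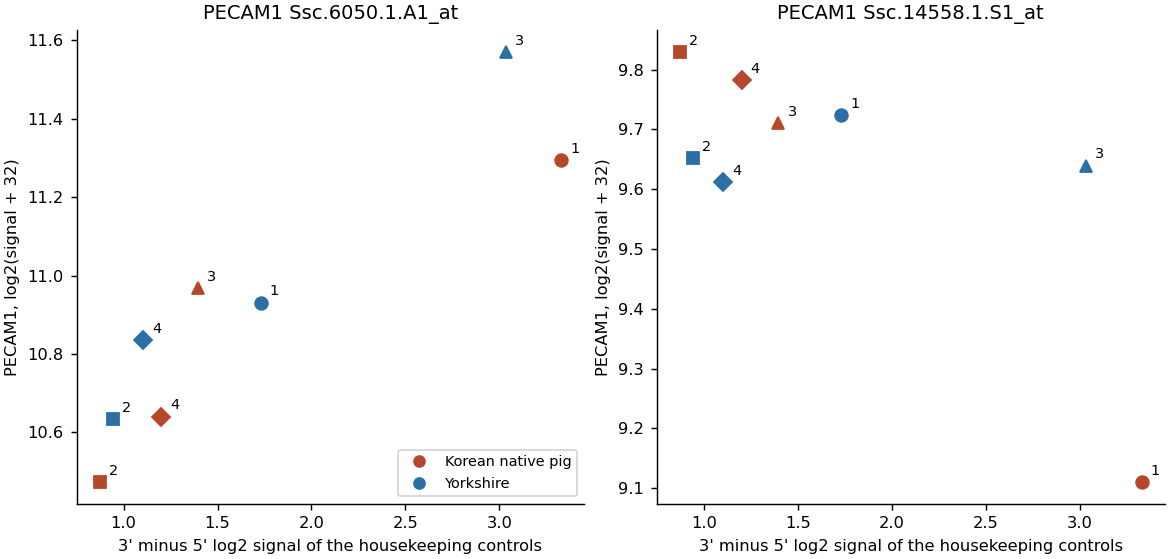
PECAM1 as log2(signal + 32) (vertical) by its 2 probe sets against the 3' minus 5' log2 signal of the housekeeping controls (horizontal) on the 8 arrays, numbered by replicate. By the brighter probe set the signal is higher where the ratio is higher (r of 0.92), and by the second one Korean native pig 1, at the highest ratio, lies below the other 7.

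The spread between animals depended on the probe set as well as on the gene. The standard deviation of log2 signal over all 8 arrays was 0.59 for ENG and 0.46 for EGFL7. Where a gene had several tested probe sets, it was 0.37 and 0.22 for PECAM1, 0.49 and 0.46 for VWF, 0.30 and 0.54 for CDH5, and 0.24, 0.41 and 0.69 for VEGFA, each brightest first. The median over all tested probe sets was 0.39, with quartiles of 0.29 and 0.55. The mean of the standardised signals of the 5 vessel markers ran from -0.48 to -0.07 in Korean native pigs and from -0.28 to 0.59 in Yorkshire pigs, and Yorkshire 3 and 4 lay above the rest. The genes whose pattern over the 8 arrays was most like that mean were TEX264 (r of 0.97), NPPB (0.96), DCAKD (0.92), HS1BP3 (0.92) and BCL2L1 (0.92). Those most like VEGFA were ANKZF1 (0.96), MFF (0.94), PLAGL1 (0.90), CHKA (0.88) and RIPOR2 (0.88). These are the highest of 5331 genes over only 8 arrays and are a description. NPPB lay below the negative control limit of 91.5 on 1 array and BCL2L1 on 2.

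Other genes of vessels were read from lists of endothelial, VEGF, angiopoietin, endoglin and Notch genes. None of their tested genes passed by limma, where 0% of all 5331 genes did. Of 25 other endothelial genes 15 were below 0, against 50.4% of all genes, with a median of -0.07. That direction turned with arrays centred on their median (12 of 25, median 0.0084), without both high-ratio arrays (11 of 25, 0.020) and within the dim arrays (11 of 25, 0.018). Among these 25 the gene of smallest p was TM4SF1, a membrane protein of endothelial and other cells, with 615, 947, 384 and 719 in Korean native pigs 1 to 4, against 1257, 925, 1396 and 909.6 in Yorkshire pigs 1 to 4. Its change was -0.77 (SE 0.27, limma adjusted p = 0.999), with -1.39 from the bright and -0.15 from the dim arrays, and a second probe set gave -0.39. KLF4, a transcription factor that blood flow induces in endothelial cells, was at 0.54 (SE 0.31).

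The partners of these genes in their pathways did not pass by limma. Of the 9 symbols of the VEGF list, where FIGF and VEGFD name the same gene, 1 was tested, VEGFB at -0.06, which turned without Korean native pig 3 (0.0060) or 4 (0.044) or Yorkshire 4 (0.074). Of 5 angiopoietin and TIE genes 1 was below 0, with a median of 0.14, but 3 of 5 were without Korean native pig 2 (median -0.0038) or Yorkshire 1 (-0.042), and 4 of 5 within the bright arrays (-0.11). The endothelial receptor TIE1 was at 0.34, or -0.05 without Yorkshire 3, and its pathway's ligand ANGPT1 at 0.20, or -0.13 without Korean native pig 2 and -0.04 without Yorkshire 1. TIE1 in Yorkshire 3, at 38.6, lay below the negative control limit of 91.5. ANGPT1 did so in Korean native pig 1 (17.9), Yorkshire 1 (50.4) and Yorkshire 4 (69.4). ANGPTL4, an angiopoietin-like gene whose change of 0.14 was the median of the angiopoietin and TIE list, did so on 3 arrays. Of 5 Notch genes 4 were below 0, with a median of -0.07. Only 2 of 5 were with arrays centred on their median (0.00061), without both high-ratio arrays (0.022), without Yorkshire 3 alone (0.065) and within the dim arrays (0.050). In that list NOTCH4 was at -0.17 and RBPJ at 0.19, or -0.08 without Korean native pig 4.

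The 5 genes of the endoglin pathway held 2 of an unadjusted p under 0.05 by limma, and these went opposite ways. Over all 14 lists 4 of the 89 tested genes had such a p, where 3.43% of all genes did. TGFBR1, the signalling receptor for transforming growth factor beta, had 1141, 926, 1586 and 1107 in Korean native pigs 1 to 4, against 839.8, 729, 777 and 603 in Yorkshire pigs 1 to 4. All 4 Korean native pigs lay above all 4 Yorkshire pigs, where the breeds did not overlap in 2.56% of all tested probe sets. The change of TGFBR1 was 0.65 (SE 0.21, limma adjusted p = 0.999), or 0.71 within the bright and 0.59 within the dim arrays. SMAD1, which carries bone morphogenetic protein signals to the nucleus, had 986, 632, 403 and 449.6 in Korean native pigs 1 to 4, against 921, 956, 677 and 1423 in Yorkshire pigs 1 to 4. Korean native pigs 2 to 4 lay below all Yorkshire pigs, and the change was -0.69 (SE 0.30, limma adjusted p = 0.999), or -0.30 within the bright and -1.08 within the dim arrays. The list median was 0.0095, and it fell below 0 without Korean native pig 2 (-0.053) or Yorkshire 1 (-0.062), without both high-ratio arrays (-0.023) and within the bright arrays (-0.023).

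Genes that control VEGFA, and genes that low oxygen raises along with it, did not pass. Of 5 regulators 3 were below 0, with a median of -0.17, against 2 of 5 without Yorkshire 3 (0.0057), without both high-ratio arrays (0.025) and within the dim arrays (0.033). PPARGC1A, a coactivator that raises VEGFA in mouse muscle, had 510.2, 745, 685 and 694 in Korean native pigs 1 to 4, against 818, 1428, 3478 and 683 in Yorkshire pigs 1 to 4. Its change was -0.96 (SE 0.41, limma adjusted p = 0.999), or -0.49 without Yorkshire 3, whose value was the highest. EGLN1, an oxygen sensor that marks the hypoxia-inducible factors for breakdown, was at 0.13. Of 7 genes that respond to low oxygen 5 were below 0, with a median of -0.23 that was -0.07 after quantile normalisation. Among them were LDHA at -0.41, or -0.23 within the bright arrays, and ANKRD37 at -0.87 (SE 0.40). VEGFA was at 0.24 by its brightest probe set, and at -0.08 and 0.07 by the other tested ones. ANKRD37 in Korean native pig 2, at 84.5, lay below the negative control limit of 91.5.

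Markers of cells that share PECAM1, VWF or the vessel wall were set beside these results. The 8 pericyte and smooth muscle genes summed to 13375 to 16565 in Korean native pigs and 13444 to 17943 in Yorkshire pigs, with 5 of 8 below 0 and a median of -0.09, or 4 of 8 and -0.014 with arrays centred on their median. TAGLN was at -0.38 and SMTN at 0.41, with a second SMTN probe set at -0.25. The 3 platelet genes summed to 406 to 560.1 in Korean native pigs and 392 to 652 in Yorkshire pigs, with 2 of 3 below 0. ITGA2B was at -0.39, or -0.059 without Korean native pig 3, GP9 at -0.26 and ITGB3, named to complete the list, at 0.22. Signals lay below the negative control limit of 91.5 on 2 arrays for ITGA2B, with 40.9 in Korean native pig 3, and on 4 for ITGB3. The 4 leukocyte genes summed to 464 to 3014 in Korean native pigs and 577 to 1516 in Yorkshire pigs, with 0 of 4 below 0 and a median of 0.20. Without Korean native pig 4 it was 3 of 4 with a median of -0.27, and within the bright arrays 2 of 4 with a median of -0.0045. Korean native pig 4 was the highest by AIF1, at 929.8, and by ITGB2, at 530.3, where the other 7 arrays had 71.4 to 339 and 81.2 to 212. AIF1 was at 0.71 and ITGB2 at 0.29, or 0.18 and -0.18 without Korean native pig 4. AIF1 lay below 91.5 on 1 array and ITGB2 on 2. PECAM1 in Korean native pig 4 was 1564 by the brighter probe set, where the highest was 3011 in Yorkshire 3. By the second it was 848, and only Korean native pig 2, at 878, was higher. The part of these cells in the marker signals was not tested.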

How the data were processed

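The authors deposited 1 linear intensity per probe set and array, and the submitters' processing notes name GCOS 1.3. How probes were summarised, scaled or filtered is not stated in the sources at hand. Each array's mean without its highest and lowest 2% was 500.1 to 500.2, so the authors' intensity values were scaled per array and changes are relative to the other probe sets. The table held 24123 probe sets, and no 2 arrays were identical (highest correlation 0.949). Gene names came from GEO's platform annotation, which gave 1 symbol for 10099 probe sets, several for 198 and none here for 13826. By gene number 9989 of the 10099 matched the Sscrofa11.1 gene table and 0 symbols changed. No genome build is stated for the array, so positions are not printed, and sequences were not analysed here.

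Signals were transformed to log2(signal + 32). The 124 control probe sets and the dimmest 40% of the rest by mean log2 signal were left out, which kept 14399 probe sets and 5331 genes. All 8 arrays entered a limma 3.58.1 fit without covariates (R 4.3.3, lmFit, then eBayes with a trend), as Korean native pig minus Yorkshire, with Benjamini-Hochberg adjustment over all probe sets and a threshold of 0.05. The fit was tested on simulated data. Correlations used exact permutation over all orders of the 8 arrays, adjusted over each family. The limma p-values set the breed difference against the spread between arrays, which holds differences of animal and of array alike. Their precision is limited by how many arrays there are. The closing section gives the alternatives.

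Members and lists were chosen with earlier results of these data known. Named by rule were all members, the 2 tested genes of smallest p in each of 14 lists (1 where only 1 was tested), and the 5 genes most like the vessel marker mean and like VEGFA. The 14 lists held 173 symbols (FIGF with VEGFD and ELTD1 with ADGRL4 name the same gene), of which 89 were tested, 18 were too dim and 66 had no probe set of 1 symbol here.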

Additional observations from a re-analysis of the deposited data

Results flagged for a closer look

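Of 30 groups of 4 arrays (15 probe sets in 2 breeds) 2 held an array far from the other 3, where chance gives about 1 in 20 such groups. For the second PECAM1 probe set, Korean native pig 1 had a signal of 521, against 805 to 878 in the other Korean native pigs, and its gap took up 0.833 of the breed's log2 range. The same array had the highest 3' to 5' ratio. For VWF by its untested probe set, Korean native pig 3 had 106, against 8.97 to 13.7 in the other Korean native pigs, and the gap took up 0.910 of the range.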

How the results depend on the processing

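Under 19 other settings of the fit (8 that left out 1 array, 11 others) 0 tested members and 0 list genes passed by limma. Over all probe sets 0 passed under each, except 1 with the replicate number as a block, which was no member. The labels do not say whether a number marks a batch, and same-numbered arrays were not taken as pairs, since their deviations from the breed means correlated at -0.043, 0.31, 0.10 and 0.054 for numbers 1 to 4. With 1 array left out EGFL7 ran from -0.79 to -0.48 and ENG from -0.83 to -0.43, and the adjusted p of EGFL7 was at least 0.964 under every setting of its fit. Signs turned for the second PECAM1 probe set with arrays centred on their median (0.026), without both high-ratio arrays (0.11) and within the dim arrays (0.17), and it ran from -0.12 to 0.12 with 1 array left out. The second VEGFA probe set was 0.063 and the third tested one -0.022 without both high-ratio arrays, the third was -0.18 within the dim arrays, and with 1 array left out they ran from -0.20 to 0.13 and from -0.26 to 0.38. VEGFA as the mean of all its probe sets was -0.067, where the untested one, mostly at background, was at -0.49, and 0.074 as the mean of the tested ones. The brightest VWF probe set was -0.030 within the dim arrays. With 1 array left out, VWF ran from -0.16 to 0.29 and -0.038 to 0.46, the brighter PECAM1 probe set from -0.30 to 0.044 and the second of CDH5 from -0.016 to 0.47. VEGFB was 0.010 with arrays centred and TIE1 -0.079 without both high-ratio arrays, and with 1 left out VEGFB ran from -0.19 to 0.074, ANGPT1 from -0.13 to 0.74, TIE1 from -0.049 to 0.54, RBPJ from -0.085 to 0.48, PDPN from -0.30 to 0.041 and ITGB2 from -0.18 to 0.59.

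The median r of the marker pairs ran from -0.23 to -0.069 with 1 array left out, that of VEGFA with the markers from -0.37 to 0.032. The VEGFA median was -0.65 centred within replicate number (replicate block), 0.19 with the mean of all probe sets of a gene, 0.27 with that of the tested ones and 0.25 with second probe sets. The last 2 settings were chosen after seeing the data. With second probe sets ENG with VEGFA was 0.47, PECAM1 with VWF -0.033 and PECAM1 with CDH5 0.49, and ENG with VEGFA was 0.13 with the mean of all probe sets and 0.27 with that of the tested ones. Of the 15 pairs 1 passed without both high-ratio arrays and 0 to 1 with 1 array left out, EGFL7 with ENG in each case. The causes were not tested.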

Other observations

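Markers of other cells that a muscle piece can hold are given as values, and none passed by limma. The 2 lymphatic genes LYVE1 and PDPN were at -0.46 (SE 0.28) and -0.13, with a list median of -0.29, or 0.022 within the bright arrays. A second LYVE1 probe set was at -0.02, and PDPN turned to 0.04 without Korean native pig 2 and 0.01 without Yorkshire 2. Of 6 adipocyte genes 4 were below 0, with a median of -0.55 that was -0.026 within the bright arrays, -0.28 with Korean native pig 2 left out and -0.32 or -0.36 with Yorkshire 2 or 3 left out, CIDEA at -0.79 and CFD at 0.70. The 3 red cell genes had a median of 0.07, or -0.012 without Korean native pig 4 and -0.092 without Yorkshire 4, with ALAS2 at -0.47 and HBM at 0.28. CIDEA in Korean native pig 2, at 34.6, lay below the negative control limit of 91.5. So did ALAS2 in Korean native pig 3 (81.3) and HBM in Yorkshire 1 (82.7). Among 11 markers of muscle fibres 10 lay below 0 (median -0.32), TNNC2 at -0.42 and MYL1 at -0.33. After quantile normalisation 7 of 11 did (median -0.022), with TNNC2 at -0.090 and MYL1 at -0.0053, and within the bright arrays 6 of 11 (median -0.0028). They summed to 521696 to 799733 in Korean native pigs and 690446 to 1059210 in Yorkshire pigs. FLT1, a further VEGF receptor, was too dim to test, and it is named after its values were seen. Its signals were 165, 90.5, 160.2 and 116 in Korean native pigs 1 to 4, against 102, 73.8, 34.4 and 16.1 in Yorkshire pigs 1 to 4. Korean native pig 2 and Yorkshire 2, 3 and 4 lay below the limit of 91.5. NRP2, another untested gene of the VEGF list, lay below that limit on all 8 arrays. Its mean was lower for the Korean breed, at 12.8 against 25.3 for Yorkshire. A breed difference of FLT1 or NRP2 was not tested.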
